A study of Mus musculus with 12 samples.

Results

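The genes of the neutrophil granules and of its most abundant cytosolic proteins were followed through 12 bulk RNA-seq. libraries of mouse osteoclast cultures. They were taken by symbol and each matched a single row, so that 10 of the 47643 genes in the table are described here, 4 of the primary granule (Mpo, Elane, Prtn3 and Ctsg) and 6 of the late granule and cytosol (Ltf, Camp, Ngp, S100a8, S100a9 and Retnlg). The libraries formed 3 groups of 4 that all started from monocytes derived from bone marrow (BMMs). The BMM donors were BALB/c WT mice, and the cells were grown into osteoclasts with M-CSF and RANKL and harvested on day 3. OCsCtr received no stimulus, OCsEo was cultured from day 0 for 48 h with sorted eosinophils at a BMMs/Eos ratio of 1 to 2, and OCsEoS received eosinophil supernatant over the same time, diluted 1 to 2. The stimuli were then removed and the cells washed, before RNA was taken. The eosinophils came from IL-5tg/4get mice, in which IL-5 is overproduced and eosinophils are abundant, and were sorted per the methods from pooled blood and bone marrow as CD45+ cells with Siglec-F and an intermediate level of CD125. The BMMs were, per the methods, the nonadherent cells of total bone marrow after a night with M-CSF.

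Neutrophils load their granules in sequence as they mature in the bone marrow. Promyelocytes make myeloperoxidase and the serine proteases of the primary (azurophilic) granule, myelocytes and metamyelocytes make lactoferrin and cathelicidin for the secondary (specific) granule, and the calprotectin subunits S100a8 and S100a9 fill the cytosol. Transcription of the primary granule genes ceases before the cells are mature, so that their mRNA is known as a mark of young granulocytes, while S100a8 and S100a9 are also made by monocytes. C/EBP factors and PU.1 are the transcription factors best known to act on these genes. In bone marrow cultures driven towards osteoclasts with M-CSF and RANKL, granulocyte precursors are not the intended product.

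The promoters of 4 granule genes are shown because they belong to the members that changed or that differ in the recognition cores they hold. The sequences are RefSeq promoters on GRCm38.p6, 250 bases before to 50 bases after the annotated start, in the direction of transcription, with any match to TTNNGNAA (a core read by C/EBP factors) or GAGGAA (a core read by PU.1), on either strand, in capitals. No match of these motifs overlapped another in the sequences shown. Elane lies at chr10:79886062-79886361 on the + strand, Ctsg at chr14:56102525-56102824 on the − strand, Ltf at chr9:111019042-111019341 on the + strand and Ngp at chr9:110419558-110419857 on the + strand.
Elane: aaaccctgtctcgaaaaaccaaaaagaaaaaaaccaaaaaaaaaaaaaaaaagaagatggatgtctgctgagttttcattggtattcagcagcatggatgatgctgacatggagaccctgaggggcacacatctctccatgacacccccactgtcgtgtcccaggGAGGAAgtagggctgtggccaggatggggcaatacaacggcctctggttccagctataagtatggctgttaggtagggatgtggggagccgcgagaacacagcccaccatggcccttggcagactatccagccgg
Ctsg: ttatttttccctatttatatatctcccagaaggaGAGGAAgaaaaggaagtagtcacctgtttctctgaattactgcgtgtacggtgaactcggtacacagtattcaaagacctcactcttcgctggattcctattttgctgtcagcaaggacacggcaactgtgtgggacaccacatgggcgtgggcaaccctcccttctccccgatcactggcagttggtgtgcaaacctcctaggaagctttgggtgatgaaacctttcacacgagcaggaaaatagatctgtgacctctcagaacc
Ltf: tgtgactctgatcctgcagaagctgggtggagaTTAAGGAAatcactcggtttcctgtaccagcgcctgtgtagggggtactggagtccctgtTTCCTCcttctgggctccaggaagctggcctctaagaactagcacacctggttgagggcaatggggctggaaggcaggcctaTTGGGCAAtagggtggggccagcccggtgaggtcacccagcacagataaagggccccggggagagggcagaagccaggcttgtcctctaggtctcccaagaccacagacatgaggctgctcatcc
Ngp: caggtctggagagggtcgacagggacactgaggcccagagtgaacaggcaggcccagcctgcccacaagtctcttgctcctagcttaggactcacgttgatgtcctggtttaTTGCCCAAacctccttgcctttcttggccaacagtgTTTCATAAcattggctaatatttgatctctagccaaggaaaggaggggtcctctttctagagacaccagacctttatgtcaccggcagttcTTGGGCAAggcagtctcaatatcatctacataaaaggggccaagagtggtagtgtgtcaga

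The capitals in Elane and Ctsg are GAGGAA, with its first base 85 and 216 bases before the start. Ngp holds 3 matches to TTNNGNAA, which begin 138, 102 and 11 bases before its start, and Ltf holds 2 of these, 217 and 75 bases before its start, besides GAGGAA on the opposite strand at 157 bases. Over all 10 members, GAGGAA was found in 4 of 4 primary granule promoters and in 2 of 6 late ones (Ltf and S100a8), and it stands in 28.28% of 32851 RefSeq promoters of 300 bases. TTNNGNAA was found in 0 of 4 primary granule promoters and in 5 of 6 late ones, all but that of Camp, and stands in 40.68% of all promoters. All distances are from the RefSeq start, which for some members is not the gene start in the deposited coordinates. Ngp starts there at 110419747, so the match nearest its RefSeq start lies past that position. The Prtn3 window (79879417 to 79879716) lies inside the gene as deposited (79874476 to 79883174). A match is a description of letters in a window of 300 bases and shows no bound site.

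In the coordinates of the deposited table (GRCm38), each of the 10 genes is protein coding. Elane (chromosome 10, 79886312 to 79888216, + strand) and Prtn3 (chromosome 10, 79874476 to 79883174, + strand) are neighbours, 3073 bases apart in GENCODE vM21. S100a8 (chromosome 3, 90668978 to 90670035, + strand) and S100a9 (chromosome 3, 90692632 to 90695721, − strand) lie 22597 bases apart on opposite strands. Mpo (chromosome 11, 87793581 to 87804413, + strand) shares 512 exonic bases with the antisense gene Gm11505, which had 0 counts in every library. Prtn3 shares 159 exonic bases with the antisense gene Plppr3, which had at most 56 counts in a library against at least 454 for Prtn3. The sources used here do not say whether counting used strand, so reads in these stretches cannot be assigned with certainty. The other 5 genes are Ctsg (chromosome 14, 56099881 to 56102574, − strand), Ltf (chromosome 9, 111019271 to 111042767, + strand), Camp (chromosome 9, 109847379 to 109849617, − strand), Ngp (chromosome 9, 110419747 to 110423012, + strand) and Retnlg (chromosome 16, 48872608 to 48874498, + strand), and none of these overlaps another gene's exons in vM21.

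The libraries held 27837530 to 40327869 counts (medians of 32895234 in OCsCtr, 35130515 in OCsEo and 34077330 in OCsEoS), and 3 counts, the floor used here, corresponded to at most 0.107 CPM (counts scaled to a common library size). This floor covers counting error only, since reads without molecular identifiers are not independent molecules. All 18 pairs of libraries within a group differed by more than sampling noise (chi-square per degree of freedom 9.99 to 35.7). This measure takes reads as independent, so it cannot show that the libraries are separate replicates. Each library was treated as 1 replicate. The labels number the libraries of a group without saying whether they came from separate mice or cultures, so p-values measure the spread between these libraries. All 10 osteoclast markers of a chosen list were measured in every group, with a summed level of 28358 to 34496 CPM in OCsCtr, 18093 to 23205 CPM in OCsEo and 14942 to 22171 CPM in OCsEoS.

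All 10 granule genes were measured above the floor in every library, the unstimulated ones included, with 178 to 9574 counts each, and all passed the filter on low counts. Per length, in CPM per kilobase averaged over the 4 OCsCtr libraries, S100a9 was highest at 309 ± 49.9 (SD), followed by S100a8 at 165 ± 23.9, Ngp at 40.0 ± 6.86, Camp at 27.6 ± 5.39 and Retnlg at 19.3 ± 4.82. The primary granule genes came next, with Prtn3 at 11.3 ± 2.56, Elane at 9.35 ± 2.64, Ctsg at 8.35 ± 0.504 and Mpo at 7.07 ± 1.51 CPM per kilobase, and Ltf was lowest at 3.54 ± 0.669. Over the OCsCtr libraries, S100a9 and S100a8, S100a8 and Ngp, and Mpo and Ltf did not overlap as neighbours in this order, whereas all neighbours from Ngp down to Mpo overlapped. The order in OCsEo and OCsEoS was the same except that Elane stood above Prtn3 in both, and Elane and Prtn3 overlapped in all 3 groups.

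In the cultures stimulated with eosinophils 3 of the granule genes rose, Elane most of all, and against these cultures 3 others were lower with supernatant. A gene was called when its Benjamini-Hochberg adjusted p in edgeR's quasi-likelihood test over all 13681 genes tested was under 0.05 and its log2 fold change exceeded 0.5 in size. In OCsEo vs. OCsCtr, 3 of the 10 members were called higher (Elane, Ctsg and Camp) and 0 lower, where 3.27% of all genes tested were called higher and 2.61% lower. In OCsEoS vs. OCsCtr, 0 of the 10 members were called in either direction, where 3.63% of all genes were called higher and 4.11% lower. In OCsEoS vs. OCsEo, 3 of the 10 members were called lower (Mpo, Ltf and Ngp) and 0 higher, where 0.307% of all genes were called lower and 0.0731% higher. This count was 0 without OCsEo 2 or OCsEoS 3, 1 without OCsCtr 1, OCsEo 1, OCsEo 3 or OCsEoS 4, and 5 without OCsCtr 3. The count of 3 in OCsEo vs. OCsCtr was 1 without OCsCtr 3, OCsEo 2 or OCsEo 3, and that of 0 in OCsEoS vs. OCsCtr was 1 without OCsCtr 2 or OCsEoS 2 and 2 without OCsCtr 3. DESeq2 called the same 3 members in OCsEo vs. OCsCtr and 5 in OCsEoS vs. OCsEo, with Camp and Retnlg added. OCsCtr is shared by the first pair of comparisons, OCsEo by the first and the last, and OCsEoS by the second and the last. The comparisons are therefore not independent of each other. For each gene, the log2 fold change of the last comparison is that of the second less that of the first. In bulk RNA, more cells of a type and more RNA per cell cannot be told apart.

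In OCsEo vs. OCsCtr, the fitted log2 fold change was above 0 for 10 of the 10 members, with a median of 0.43 over the members (0.54 for the primary and 0.43 for the late ones) and of −0.01 over all genes tested. The members' adjusted p was under 0.05 for 5 genes (Elane, Ctsg, Camp, Ngp and S100a9), against 17.4% of all genes tested, and the unadjusted p for 8, against 29.7% of all genes. All 4 OCsEo libraries lay above all 4 OCsCtr libraries for 3 members (Elane, Camp and Ngp), while the groups did not overlap, in either direction, for 21.5% of all genes. In OCsEoS vs. OCsCtr, 3 log2 fold changes were above 0 and 7 below, with a median of −0.05 (0.06 for the primary and −0.11 for the late members). By the unadjusted p in edgeR, 3 members (Mpo, Elane and Retnlg) were under 0.05 in that comparison, where 34.3% of all genes were, and DESeq2 also called 0. In OCsEoS vs. OCsEo, 10 of 10 were below 0, with a median of −0.56 (−0.54 for the primary and −0.58 for the late members, 0.00 over all genes), and 9 had an unadjusted p under 0.05, against 11.1% of all genes. All OCsEoS libraries lay below all OCsEo libraries for 7 members, 2 primary and 5 late, while the groups did not overlap for 5.47% of all genes.

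**Figure D1:**
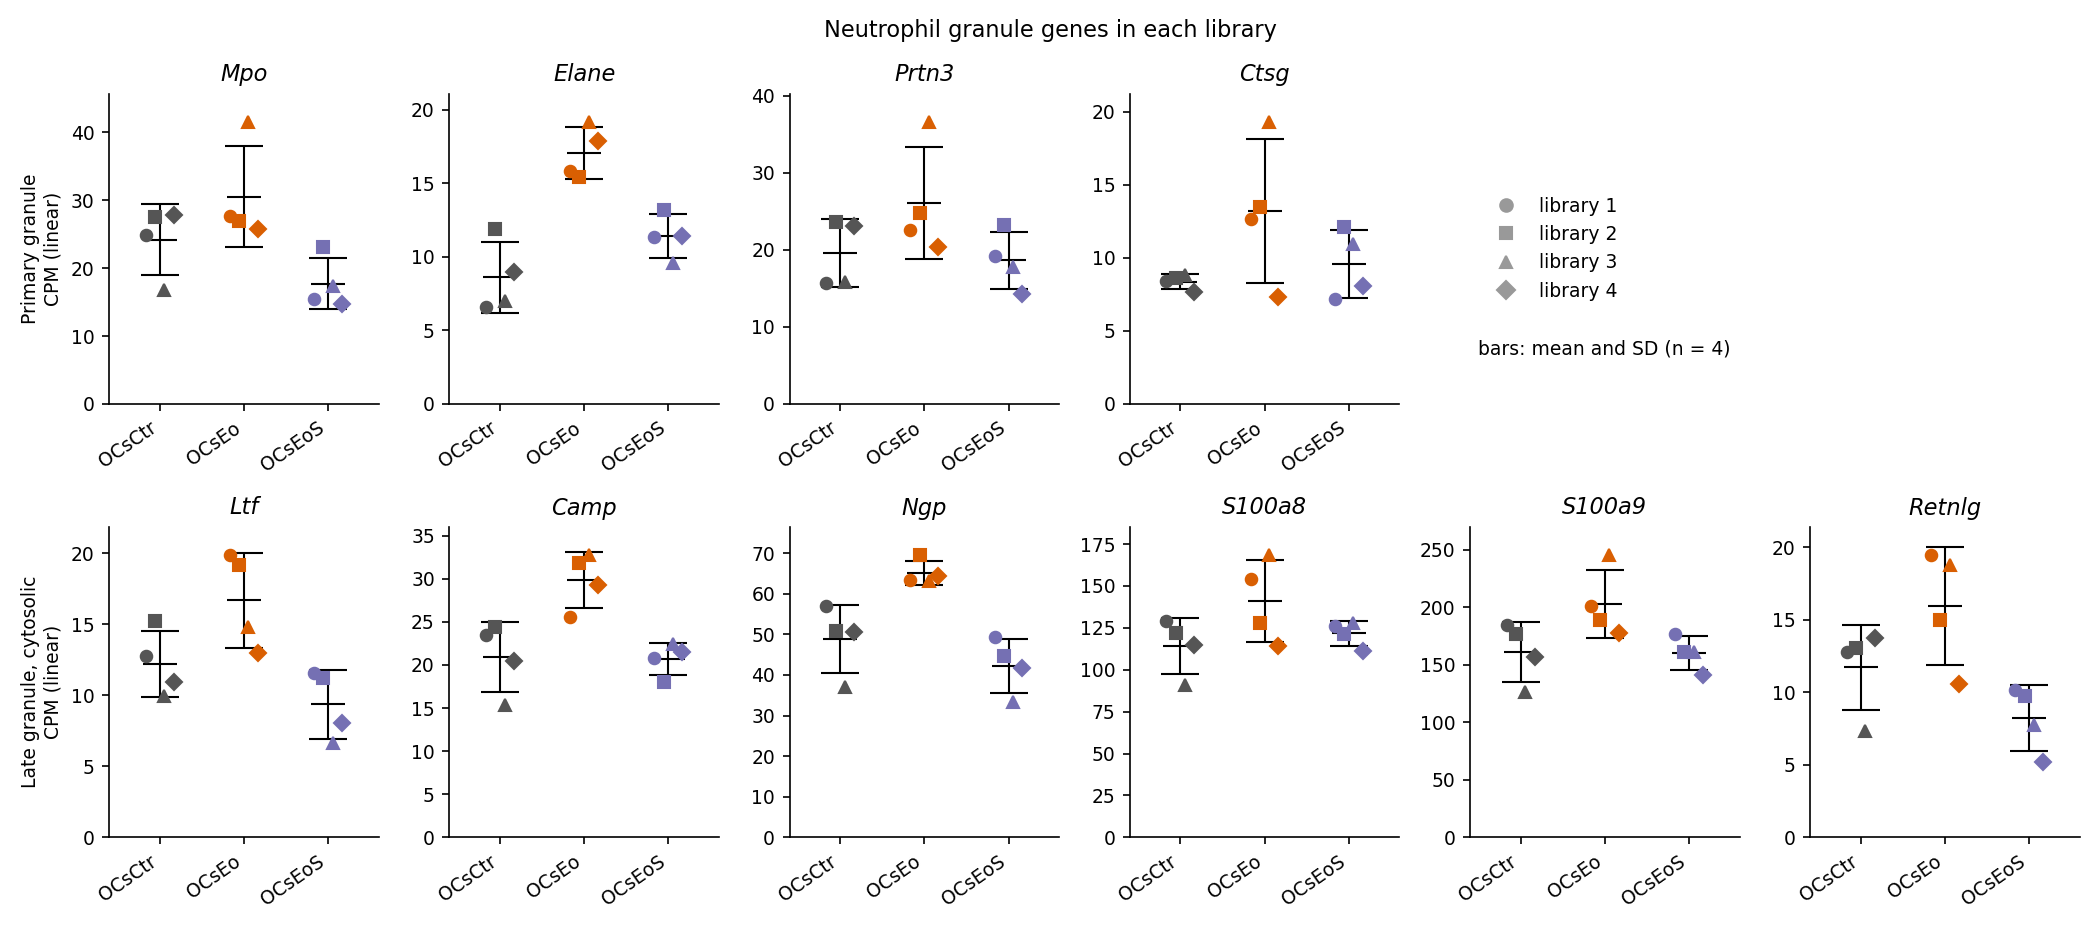
CPM (linear axis from 0) of the 10 granule genes in each of the 12 libraries, with 1 panel per gene, symbols for the library number and the mean and SD of each group (n = 4). Elane, Camp and Ngp show all 4 OCsEo libraries above all 4 OCsCtr libraries, and Mpo shows OCsEo 3 far above the other OCsEo libraries.

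**Figure D2:**
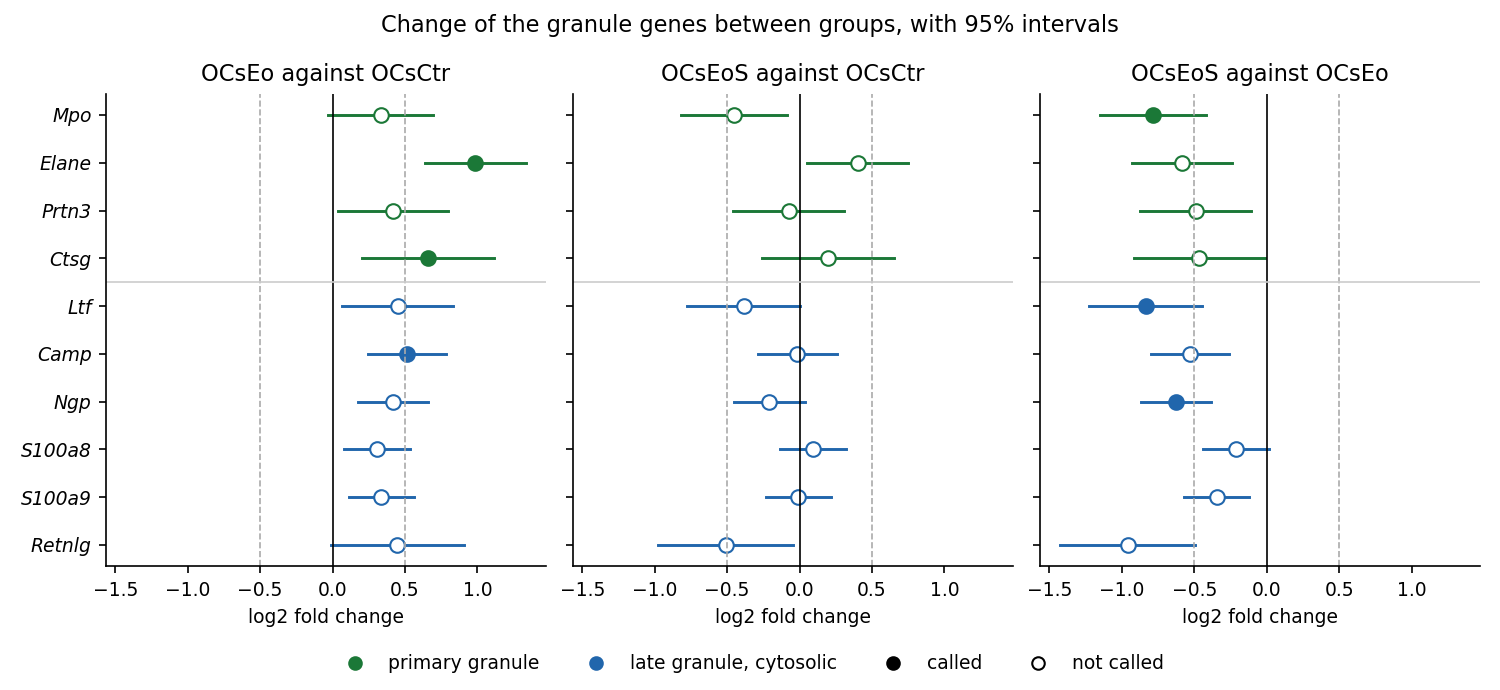
Log2 fold change of each granule gene in the 3 comparisons, with its 95% interval from the edgeR fit, filled where the gene was called, and dashed lines at a log2 fold change of 0.5 in size. All 10 points lie right of 0 in OCsEo vs. OCsCtr and left of 0 in OCsEoS vs. OCsEo, and those of OCsEoS vs. OCsCtr lie on both sides.

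Elane, which encodes neutrophil elastase, the serine protease that cuts elastin and bacterial proteins, rose most. It was measured at 6.59, 11.9, 6.98 and 8.96 CPM in OCsCtr libraries 1 to 4, at 15.8, 15.4, 19.2 and 17.8 CPM in the OCsEo libraries and at 11.4, 13.2, 9.56 and 11.4 CPM in the OCsEoS libraries. Every OCsEo library was higher than every library of both other groups, and the OCsEoS libraries overlapped the OCsCtr libraries through OCsCtr 2. The level in OCsEo was 1.98-fold that in OCsCtr (log2 fold change 0.99 ± 0.17 SE, adjusted p = 0.00038). In OCsEoS vs. OCsCtr it did not pass the test (log2 fold change 0.40 ± 0.17 SE, adjusted p = 0.0905), nor in OCsEoS vs. OCsEo (log2 fold change −0.58 ± 0.16 SE, adjusted p = 0.138). The rise in OCsEo was called with each of the 12 libraries left out in turn, with log2 fold changes of 0.88 to 1.19, and Elane was also called higher in OCsEoS vs. OCsCtr without OCsCtr 2 (0.61, adjusted p = 0.0108).

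Mpo encodes myeloperoxidase, the heme peroxidase that makes hypochlorous acid from hydrogen peroxide and chloride. It was measured at 24.8, 27.5, 16.7 and 27.8 CPM in the OCsCtr libraries, at 27.7, 27.0, 41.6 and 25.7 CPM in the OCsEo libraries and at 15.5, 23.1, 17.4 and 14.8 CPM in the OCsEoS libraries. OCsEo 3 stood above all others, the remaining OCsEo libraries lay within the range of OCsCtr, and all OCsEoS libraries lay below all OCsEo libraries. The difference between OCsEo and OCsCtr did not pass the test (log2 fold change 0.33 ± 0.17 SE, adjusted p = 0.209). Mpo was called lower in OCsEoS vs. OCsEo (log2 fold change −0.79 ± 0.18 SE, adjusted p = 0.0441), at 0.58 times the OCsEo level, and was not called in OCsEoS vs. OCsCtr (log2 fold change −0.45 ± 0.18 SE, adjusted p = 0.0705). Its call in OCsEoS vs. OCsEo was lost on leaving out OCsCtr 1 or 2, any OCsEo library, or OCsEoS 1, 3 or 4, with log2 fold changes of −0.86 to −0.60 (the smallest in size without OCsEo 3) and adjusted p of 0.0508 to 0.147. Mpo was called lower in OCsEoS vs. OCsCtr without OCsCtr 3 (−0.59, adjusted p = 0.0181) or without OCsEoS 2 (−0.60, adjusted p = 0.0201).

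Prtn3, the gene of proteinase 3, a close relative of elastase and its chromosomal neighbour, was measured at 15.7, 23.7, 15.8 and 23.2 CPM in OCsCtr, at 22.7, 24.8, 36.7 and 20.4 CPM in OCsEo and at 19.3, 23.2, 17.8 and 14.2 CPM in OCsEoS. All 3 groups overlapped, with OCsEo 3 as the highest library. No comparison passed the test, with log2 fold changes of 0.42 in OCsEo vs. OCsCtr, −0.07 in OCsEoS vs. OCsCtr and −0.49 in OCsEoS vs. OCsEo. The 95% interval of the first of these, not adjusted over genes, ran from 0.04 to 0.80.

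Ctsg encodes cathepsin G, a serine protease with chymotrypsin-like activity. It was measured at 8.42, 8.61, 8.80 and 7.65 CPM in OCsCtr, at 12.7, 13.5, 19.3 and 7.34 CPM in OCsEo and at 7.19, 12.1, 10.9 and 8.05 CPM in OCsEoS. The OCsCtr libraries were close to each other (SD 0.505 CPM), whereas the OCsEo libraries spread widely (SD 4.89 CPM), with OCsEo 1 to 3 above all OCsCtr libraries and OCsEo 4 below them. Ctsg was called higher in OCsEo vs. OCsCtr (log2 fold change 0.66 ± 0.22 SE, adjusted p = 0.041), and not in OCsEoS vs. OCsCtr (log2 fold change 0.19 ± 0.22 SE, adjusted p = 0.589) or OCsEoS vs. OCsEo (log2 fold change −0.47 ± 0.22 SE, adjusted p = 0.434). The call was lost on leaving out any OCsCtr library or OCsEo 1, 2 or 3, with log2 fold changes of 0.42 (without OCsEo 3) to 0.69 and adjusted p of 0.068 to 0.209.

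Among the late granule genes, Camp, which encodes the precursor of the antimicrobial peptide CRAMP, the mouse cathelicidin, was measured at 23.5, 24.4, 15.3 and 20.5 CPM in OCsCtr, at 25.6, 31.8, 32.7 and 29.3 CPM in OCsEo and at 20.8, 18.1, 22.4 and 21.5 CPM in OCsEoS. All OCsEo libraries lay above all libraries of the other groups, and all OCsEoS libraries lay within the range of OCsCtr. It was called higher in OCsEo vs. OCsCtr (log2 fold change 0.51 ± 0.13 SE, adjusted p = 0.00876), close to the fold cut-off. It was lower in level but not called in OCsEoS vs. OCsEo (log2 fold change −0.53 ± 0.13 SE, adjusted p = 0.0735), and the OCsEoS and OCsCtr means differed by a log2 fold change of −0.02. The first call was lost without OCsCtr 3 (0.39), OCsEo 2 (0.48) or OCsEo 3 (0.46), in each case through the fold cut-off, and the last comparison gave a call without OCsCtr 3 (−0.53, adjusted p = 0.0356).

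Ngp encodes neutrophilic granule protein, a secreted member of the cystatin superfamily. It was measured at 56.9, 50.9, 37.0 and 50.6 CPM in OCsCtr, at 63.4, 69.5, 63.2 and 64.3 CPM in OCsEo and at 49.3, 44.7, 33.4 and 41.6 CPM in OCsEoS. The OCsEo libraries were close together (SD 2.95 CPM) and above all other libraries, and OCsCtr and OCsEoS overlapped. In OCsEo vs. OCsCtr it passed the adjusted p but not the fold cut-off (log2 fold change 0.42 ± 0.12 SE, adjusted p = 0.0164). It was called lower in OCsEoS vs. OCsEo (log2 fold change −0.62 ± 0.12 SE, adjusted p = 0.0148), and not called in OCsEoS vs. OCsCtr (log2 fold change −0.21 ± 0.12 SE, adjusted p = 0.219). The call in OCsEoS vs. OCsEo was lost without OCsEo 2 (−0.59, adjusted p = 0.0529) or without OCsEoS 3 (−0.53, adjusted p = 0.0647).

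Ltf encodes lactoferrin, the iron-binding protein of the specific granule. It was measured at 12.8, 15.2, 9.95 and 11.0 CPM in OCsCtr, at 19.9, 19.2, 14.8 and 12.99 CPM in OCsEo and at 11.6, 11.3, 6.62 and 8.05 CPM in OCsEoS. OCsEo overlapped OCsCtr through its libraries 3 and 4, and every OCsEoS library was lower than every OCsEo library. Ltf was called lower in OCsEoS vs. OCsEo (log2 fold change −0.84 ± 0.19 SE, adjusted p = 0.043), and was not called in OCsEo vs. OCsCtr (log2 fold change 0.45 ± 0.18 SE, adjusted p = 0.1) or OCsEoS vs. OCsCtr (log2 fold change −0.39 ± 0.19 SE, adjusted p = 0.151). The call was lost without OCsCtr 1, OCsEo 1, 2 or 3, or OCsEoS 3 or 4, with log2 fold changes of −0.89 to −0.70 and adjusted p of 0.051 to 0.149, and in a fit of the 2 groups alone (−0.84, adjusted p = 0.058).

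Retnlg encodes resistin-like gamma, a secreted protein of neutrophils. The paper places Retnlg, with Mpo, among eosinophil-related genes that it detected in osteoclasts co-cultured with eosinophils. Retnlg was measured at 12.8, 13.03, 7.36 and 13.7 CPM in OCsCtr, at 19.5, 15.0, 18.8 and 10.6 CPM in OCsEo and at 10.2, 9.75, 7.78 and 5.19 CPM in OCsEoS. OCsCtr 3 was the low library of its group, OCsEo 4 lay within the OCsCtr range, and all OCsEoS libraries lay below all OCsEo libraries. The difference between OCsEoS and OCsEo was the largest in size among the 10 members, yet it did not pass the test (log2 fold change −0.96 ± 0.22 SE, adjusted p = 0.0565), as was the case for OCsEo vs. OCsCtr (log2 fold change 0.45 ± 0.22 SE, adjusted p = 0.179) and OCsEoS vs. OCsCtr (log2 fold change −0.51 ± 0.22 SE, adjusted p = 0.11). It gave a call in OCsEoS vs. OCsEo without OCsCtr 3 (−0.96, adjusted p = 0.0356) or OCsEo 4 (−1.11, adjusted p = 0.0272), and in OCsEoS vs. OCsCtr without OCsCtr 3 (−0.68, adjusted p = 0.0315).

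S100a8 and S100a9 encode the subunits of calprotectin, a calcium- and zinc-binding complex of the neutrophil cytosol. S100a8 was measured at 129, 122, 91.0 and 115 CPM in OCsCtr, at 154, 128, 168 and 114 CPM in OCsEo and at 126, 121, 128 and 111 CPM in OCsEoS, and S100a9 at 184, 177, 126 and 157 CPM, 201, 189, 245 and 177 CPM and 177, 161, 161 and 141 CPM in the same order. OCsCtr 3 was the lowest library for both genes and OCsEo 3 the highest, and the OCsEo and OCsCtr libraries overlapped for both. S100a9 passed the adjusted p without the fold cut-off in OCsEo vs. OCsCtr (log2 fold change 0.34 ± 0.11 SE, adjusted p = 0.0355), and S100a8 did not pass (log2 fold change 0.30 ± 0.11 SE, adjusted p = 0.0605). The log2 fold change of S100a8 was the smallest among the members in that comparison. In OCsEoS vs. OCsCtr, the log2 fold changes were 0.09 for S100a8 and −0.01 for S100a9, and in OCsEoS vs. OCsEo they were −0.21 and −0.34, with adjusted p of 0.489 and 0.198.

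Summed over the class, the 4 primary granule genes held 60.8 ± 10.8 CPM in OCsCtr, 86.9 ± 20.3 CPM in OCsEo and 57.3 ± 10.0 CPM in OCsEoS (mean and SD, n = 4). The 6 late and cytosolic genes held 369 ± 59.0, 472 ± 56.6 and 362 ± 27.3 CPM in the same order, most of it from S100a8 and S100a9. The sum of the specific granule genes Ltf, Camp and Ngp over that of the primary granule genes was 1.36 ± 0.212 in OCsCtr, 1.33 ± 0.26 in OCsEo and 1.29 ± 0.247 in OCsEoS, with overlapping libraries throughout. Within the primary class, the ratio of Elane to Mpo was 0.359 ± 0.0795 in OCsCtr (0.265 to 0.433), 0.575 ± 0.0951 in OCsEo (0.461 to 0.694) and 0.657 ± 0.113 in OCsEoS (0.549 to 0.775), so that the libraries of both stimulated groups lay above those of OCsCtr. The ratio of Elane to Prtn3, its neighbour, was 0.437 ± 0.049 in OCsCtr, 0.68 ± 0.149 in OCsEo and 0.625 ± 0.121 in OCsEoS, again with both stimulated groups above the OCsCtr libraries. The ratio of S100a9 to S100a8 was 1.41, 1.45 and 1.32 on average in OCsCtr, OCsEo and OCsEoS, with overlap between the groups. These ratios were chosen after the values were seen and are given without a test.

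**Figure D3:**
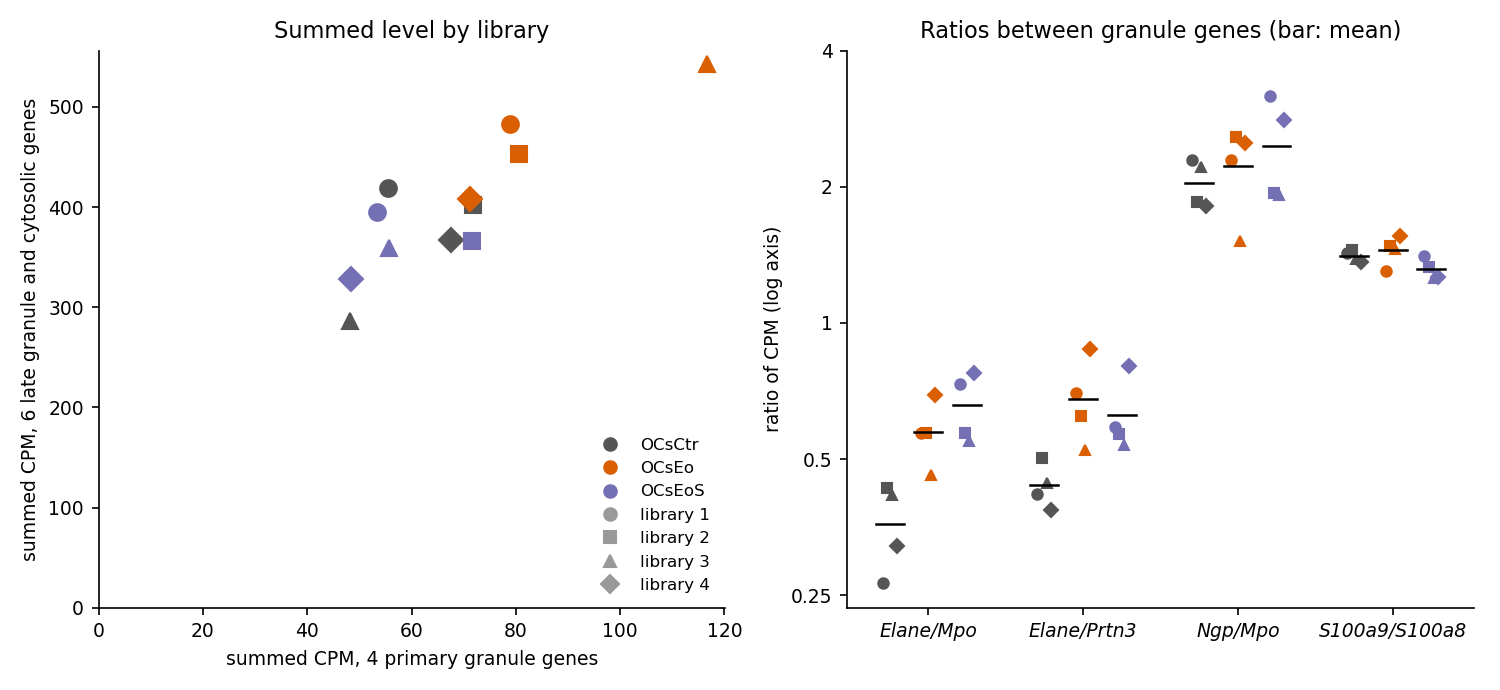
Left, summed CPM of the 4 primary granule genes (x axis) and of the 6 late granule and cytosolic genes (y axis), both linear from 0, with 1 point per library. Right, ratios of CPM between granule genes on a log axis, with a point per library and a bar at the group mean, in which Elane/Mpo is 0.265 to 0.433 in OCsCtr and 0.461 to 0.775 in the stimulated groups.

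How far the members varied together from library to library differed between pairs. Over the 12 libraries, Pearson's r of log2 CPM had a median of 0.64 over the 6 pairs of primary granule genes, 0.76 over the 15 pairs of late genes and 0.63 over the 24 pairs of a primary with a late gene. After the group means were taken out, the medians were 0.58, 0.53 and 0.34, and single pairs ranged from −0.22 (Ctsg and Ngp) to 0.92. These are descriptions over 12 libraries that share group differences and library scaling. In OCsEo 3, all 4 primary granule genes lay above their group mean, by 0.45 on average on the log2 scale, and 4 of the 6 late ones did. In OCsEoS 2, all 4 primary genes lay above the mean (0.33 on average). In OCsCtr 3, 0 of the 6 late genes lay above the mean (−0.39 on average), and in OCsEo 4 the primary genes averaged −0.31 and 0 of the 6 late genes lay above it.

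**Figure D4:**
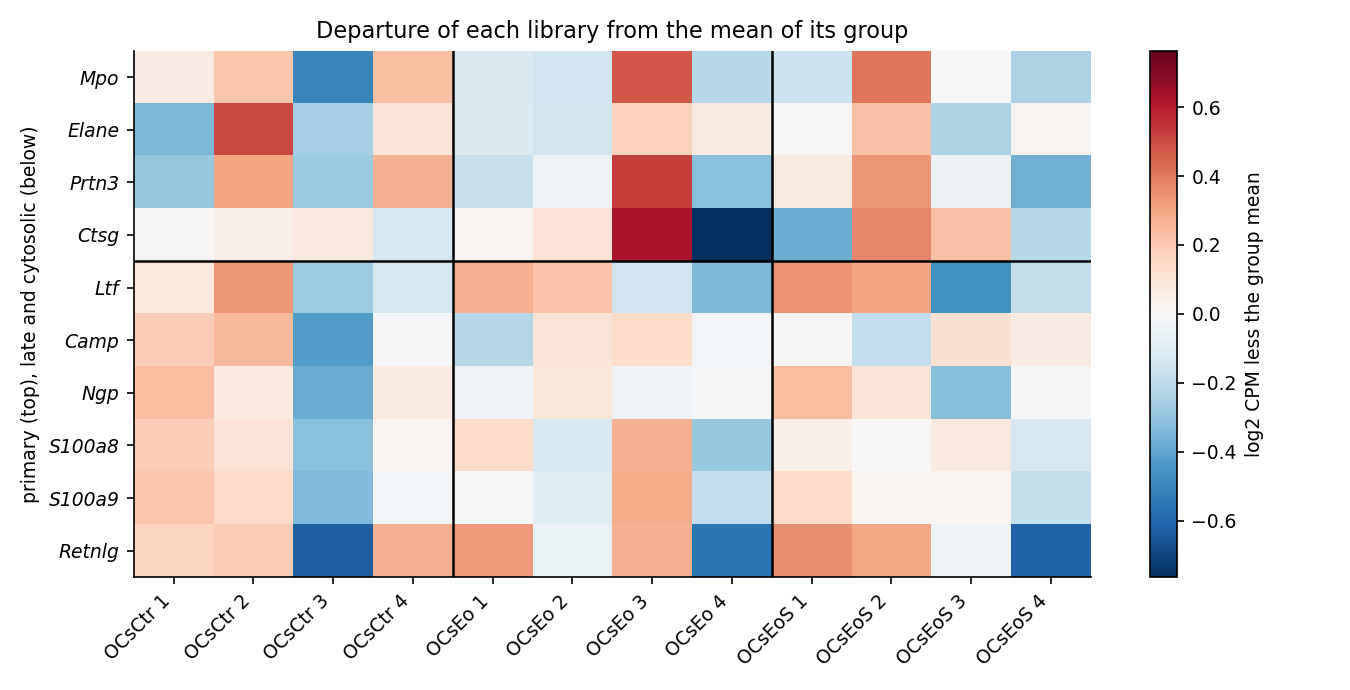
Departure of each library from the mean of its group, in log2 CPM, for the 10 granule genes (rows, primary above the line) and the 12 libraries (columns, groups separated by lines). Red marks values above and blue values below the group mean, and OCsEo 3 is red in all 4 primary genes while OCsCtr 3 is blue in all 6 late genes.

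The genes most like Mpo over the 12 libraries, by Pearson's r of log2 CPM among the genes tested, were Ccr7 (0.87), Retnlg (0.87), Sdr39u1 (0.87), Zfp608 (0.86) and Gm29397 (0.85). Those most like Ltf were Rlim (0.90), Hnrnpl (0.89), Rad50 (0.89), Gtf2a1 (0.89) and Actb (0.88). Retnlg is the single member of the granule genes among these 10 places. These values are the highest over 13681 genes tested in only 12 libraries that share group differences and library scaling. They describe likeness in these libraries and were not tested.

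Other genes of the granulocyte program were taken from lists chosen with earlier results known, and described by counts. Over all genes tested, 3.27% were called higher, 2.61% lower and 29.7% had an unadjusted p under 0.05 in OCsEo vs. OCsCtr. These shares were 3.63%, 4.11% and 34.3% in OCsEoS vs. OCsCtr and 0.0731%, 0.307% and 11.1% in OCsEoS vs. OCsEo. Of 12 other primary granule and promyelocyte genes tested, 1 was called higher and 0 lower in OCsEo vs. OCsCtr, with a median log2 fold change of 0.19. The gene called was Ms4a3, a membrane protein of granulocyte-monocyte progenitors, at 1.96, 3.92 and 2.04 CPM on average in OCsCtr, OCsEo and OCsEoS (log2 fold change 1.00, adjusted p = 0.0493). With supernatant, 2 of the 12 were called higher, in OCsEoS vs. OCsCtr, namely Serpinb1a (log2 fold change 0.57, adjusted p = 0.00559), an inhibitor of elastase, proteinase 3 and cathepsin G, and Srgn (log2 fold change 0.55, adjusted p = 0.000105), the proteoglycan that packs granule contents. In OCsEoS vs. OCsEo, 0 of the 12 were called by edgeR or DESeq2 and 6 had an unadjusted p under 0.05, with a median of 0.03.

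Of 23 other late granule genes, 20 were tested, and 3 were called higher and 1 lower in OCsEo vs. OCsCtr (median 0.37, with 17 of 20 above 0). Pglyrp1, a peptidoglycan recognition protein of the specific granule, was measured at 2.32, 3.62, 2.59 and 2.33 CPM in OCsCtr, at 8.67, 6.83, 12.1 and 5.09 CPM in OCsEo and at 2.85, 2.72, 1.63 and 3.06 CPM in OCsEoS. All OCsEo libraries lay above all others, and Pglyrp1 was called higher in OCsEo vs. OCsCtr (log2 fold change 1.59, adjusted p = 0.000374) and lower in OCsEoS vs. OCsEo (log2 fold change −1.67, adjusted p = 0.00378), where it was the single gene of the list called by edgeR and DESeq2 also called Lcn2 lower. Wfdc17 (log2 fold change 0.94, adjusted p = 0.00152) and the sheddase Adam8 (log2 fold change 0.60, adjusted p = 0.00014), which macrophages also express, were called higher in OCsEo vs. OCsCtr, and both were called higher in OCsEoS vs. OCsCtr too (log2 fold change 0.63, adjusted p = 0.0188 and log2 fold change 0.58, adjusted p = 0.000132). Mmp9, the gelatinase of neutrophil granules and of osteoclasts, was called lower in both comparisons (log2 fold change −0.77, adjusted p = 0.000233 and log2 fold change −1.10, adjusted p = 7.59e-06). The list had, in OCsEoS vs. OCsCtr, 2 genes called higher and 1 lower with a median of −0.09, and in OCsEoS vs. OCsEo its median was −0.32, with 17 of 20 below 0.

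Of 16 mature neutrophil markers, 15 were tested. The single gene called by edgeR was the C-type lectin receptor Clec4d, which macrophages also express. It was called higher in OCsEo vs. OCsCtr (log2 fold change 0.71, adjusted p = 5.4e-06) and in OCsEoS vs. OCsCtr (log2 fold change 0.89, adjusted p = 8.58e-07), and in OCsEoS vs. OCsEo 0 markers were called by edgeR or DESeq2, with 3 at an unadjusted p under 0.05. DESeq2 also called Padi4 higher in OCsEo vs. OCsCtr. The list's median log2 fold changes were 0.15, −0.07 and −0.02 in the 3 comparisons. The list summed to 279 to 307 CPM in OCsCtr, 381 to 464 CPM in OCsEo and 431 to 530 CPM in OCsEoS, and Clec4d made up most of it (220.5, 362 and 408 CPM on average). The defining markers were low. Ly6g was measured at 4.13, 4.39, 1.77 and 2.95 CPM in OCsCtr, at 3.80, 3.64, 6.10 and 4.05 CPM in OCsEo and at 2.95, 2.49, 1.57 and 1.98 CPM in OCsEoS (log2 fold change 0.41, adjusted p = 0.376 in OCsEo vs. OCsCtr, not called). All OCsEoS libraries lay below all OCsEo libraries for Ly6g, and it was not called in that comparison either (log2 fold change −0.97, adjusted p = 0.186). Csf3r, the G-CSF receptor, averaged 2.57, 3.28 and 2.51 CPM in the 3 groups and Cxcr2 2.01, 1.27 and 1.16 CPM, with neither called in any comparison. The part of neutrophil precursors or mature neutrophils in the granule gene levels was not tested.

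Of the 8 granulocyte transcription factors tested, 0 were called by edgeR in any of the 3 comparisons. An unadjusted p under 0.05 was found for 4 in OCsEo vs. OCsCtr (29.7% of all genes), 4 in OCsEoS vs. OCsCtr (34.3%) and 1 in OCsEoS vs. OCsEo (11.1%). DESeq2 called Cebpe higher in OCsEo vs. OCsCtr and 0 in the other comparisons. Cebpe, the factor needed for specific granules, averaged 3.79, 6.10 and 4.69 CPM in OCsCtr, OCsEo and OCsEoS (log2 fold change 0.69, adjusted p = 0.0606 in OCsEo vs. OCsCtr). Cebpa, needed for granulocyte commitment, passed the adjusted p without the fold cut-off in OCsEo vs. OCsCtr (log2 fold change 0.32, adjusted p = 0.0183) and in OCsEoS vs. OCsCtr (log2 fold change 0.29, adjusted p = 0.0279), and Cebpb did in OCsEo vs. OCsCtr (log2 fold change 0.43, adjusted p = 0.0355). Spi1, the gene of PU.1, averaged 678, 669.8 and 616 CPM, and Gfi1, which represses monocyte genes in granulocytes, averaged at most 0.3 CPM in a group. Of 12 receptors and inhibitors of the granule proteins tested (from a list of 16), 2 were called higher in OCsEo vs. OCsCtr, the scavenger receptor Cd36 (log2 fold change 1.54, adjusted p = 9.49e-11) and the serine protease inhibitor Serpinb9 (log2 fold change 0.87, adjusted p = 0.00214). Both were called higher in OCsEoS vs. OCsCtr as well (log2 fold change 1.66, adjusted p = 2.57e-11 and log2 fold change 0.76, adjusted p = 0.00451), with Serpinb1a as the third gene of this list. In OCsEoS vs. OCsEo 0 were called by edgeR or DESeq2, with 2 at an unadjusted p under 0.05. Ctsc, the peptidase that activates elastase, proteinase 3 and cathepsin G, averaged 175, 201 and 244 CPM in OCsCtr, OCsEo and OCsEoS and was not called in any comparison, though it passed the adjusted p without the fold cut-off in OCsEoS vs. OCsCtr (log2 fold change 0.48, adjusted p = 0.000677).

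Some eosinophil genes differed between the groups as well, not all in the same direction. Of 12 eosinophil markers, 7 were tested, and Siglecf, Il5 and Alox15 were called higher in OCsEo vs. OCsCtr. In that comparison 4 of the 7 log2 fold changes were above 0 and 3 below. Ccr3 was lower there, passing the adjusted p without the fold cut-off (log2 fold change −0.29, edgeR adjusted p = 0.0164). Alox15, the 12/15-lipoxygenase, was measured at 0.104, 0.148, 0.294 and 0.653 CPM in OCsCtr, at 9.68, 11.4, 16.7 and 6.24 CPM in OCsEo and at 0.641, 1.13, 0.178 and 0.729 CPM in OCsEoS (log2 fold change 5.17, adjusted p = 8.42e-07 in OCsEo vs. OCsCtr). Il5, which the eosinophil donors carry as a transgene, was measured at 2.24, 2.50, 4.18 and 1.52 CPM in the OCsEo libraries and at most at 0.0297 CPM, under the floor, in any other library. Siglecf, a surface receptor used in the sort, was measured at 2.90, 2.53, 3.28 and 3.05 CPM in OCsEo and at 0.218 to 1.30 CPM in the libraries of the other groups. OCsEo 3, which had the highest Mpo, Elane, Prtn3 and Ctsg of its group, also had the highest Alox15, Il5 and Siglecf, and OCsEo 4, which had the lowest Mpo, Prtn3 and Ctsg, had the lowest Alox15 and Il5. The order was not shared by all of these genes, since Elane and Siglecf were second highest in OCsEo 4 and lowest in OCsEo 2. Prg2, Prg3, Ear6, Ccr3 and Cebpe, also on the eosinophil list, were highest in OCsEo 3 too. The remaining markers were not, with Epx and Ear1 highest in OCsEo 2. Ear2 and Il5ra were highest in OCsEo 1 and lowest in OCsEo 3. Of the late members, Camp, S100a8 and S100a9 were highest in OCsEo 3, Ltf and Retnlg in OCsEo 1 and Ngp in OCsEo 2. Ngp was lowest in OCsEo 3, Camp in OCsEo 1, and Ltf, S100a8, S100a9 and Retnlg in OCsEo 4. Among the granule protein genes of eosinophils, Epx and Ear1 did not pass the filter and were not tested, with 9, 31 and 0 counts in all for Epx and 9, 54 and 0 for Ear1, a ribonuclease, in OCsCtr, OCsEo and OCsEoS. Epx, eosinophil peroxidase, was at 0 in 2 of the OCsEo libraries and at most at 0.479 CPM, and Prg2, the major basic protein gene, averaged 5.53, 5.49 and 0.815 CPM in OCsCtr, OCsEo and OCsEoS. Prg2 was the 1 marker called lower in OCsEoS vs. OCsCtr (log2 fold change −2.74, adjusted p = 0.00136), and Prg2, Il5 and Alox15 were called lower in OCsEoS vs. OCsEo, where DESeq2 called Siglecf in place of Prg2. DESeq2 called Cebpe, also on this list, higher in OCsEo vs. OCsCtr. The whole eosinophil list summed to 59.7 to 77.2 CPM in OCsCtr, 66.7 to 95.4 CPM in OCsEo and 53.1 to 60.8 CPM in OCsEoS, mostly from Ccr3 (59.6, 48.7 and 50.7 CPM on average). The part of eosinophil RNA in the granule gene levels was not tested.

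**Figure D5:**
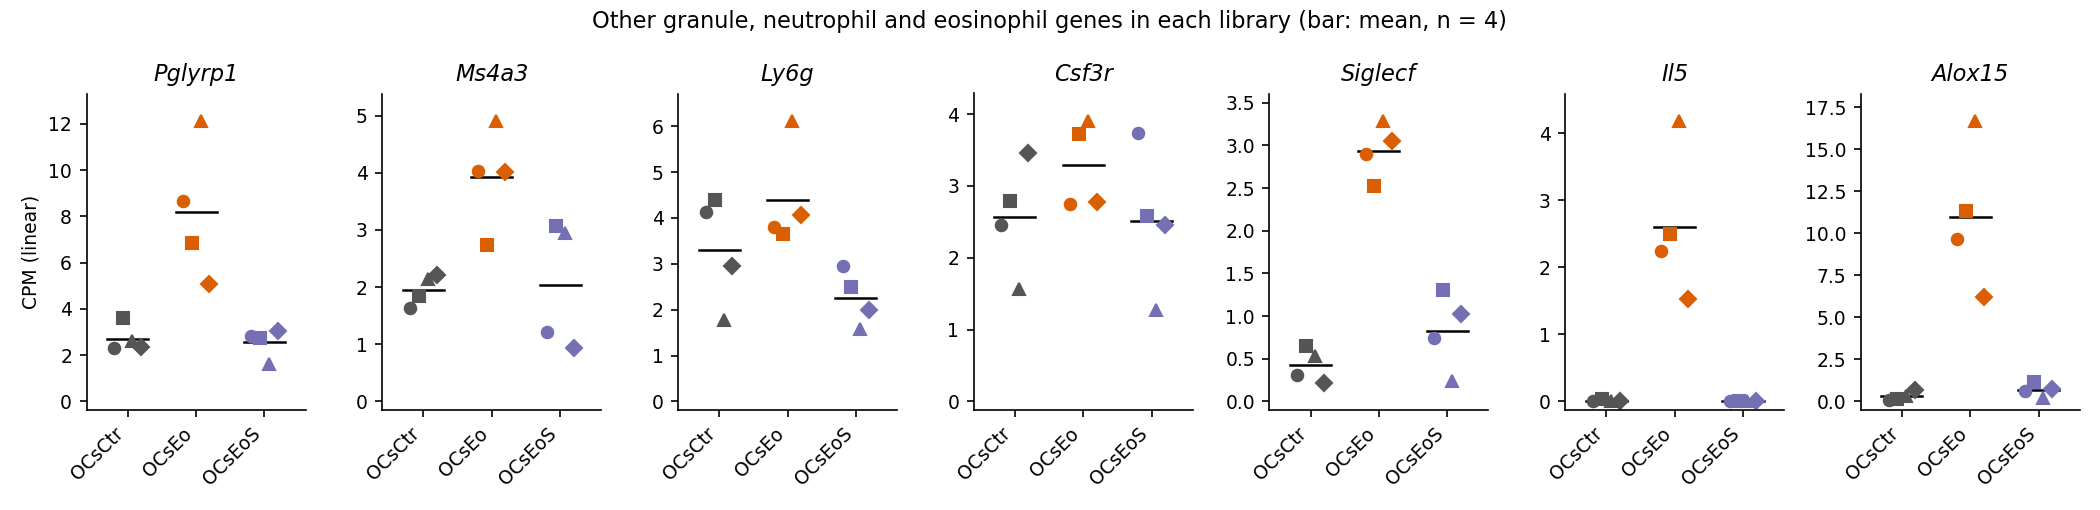
CPM (linear axes) of Pglyrp1 and Ms4a3 (granule and promyelocyte genes), Ly6g and Csf3r (neutrophil markers) and Siglecf, Il5 and Alox15 (eosinophil markers) in each library, with a bar at the group mean (n = 4) and the same symbols for the library numbers as in the plot of the granule genes. Pglyrp1, Siglecf, Il5 and Alox15 have all OCsEo libraries above all others, while Csf3r overlaps between all groups and Ly6g between OCsCtr and each of the others.

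Markers of other cells that bone marrow could bring along were measured too. The summed levels of the B cell and progenitor lists were in the range of single granule genes, such as Elane (8.60 CPM) and Ltf (12.2 CPM) on average in OCsCtr. B cell markers summed to 7.39 to 21.4 CPM in OCsCtr, to 18.1 to 20.5 CPM in OCsEo and to 15.0 to 21.4 CPM in OCsEoS, T cell markers to at most 3.67 CPM in any library, erythroid markers to at most 5.79 CPM, basophil and mast cell markers to at most 7.74 CPM, and progenitor markers to at most 25.7 CPM. Of these 5 lists, 0 genes were called by edgeR in any comparison, with 2 B cell markers at an unadjusted p under 0.05 in OCsEo vs. OCsCtr and 1 B cell and 1 progenitor marker in OCsEoS vs. OCsEo, where DESeq2 called the B cell marker Pax5 higher. Monocyte and macrophage markers summed to 1622 to 1879 CPM in OCsCtr, 1431 to 1705 CPM in OCsEo and 1372 to 1664 CPM in OCsEoS. Among them, Cd14 was called higher in OCsEo vs. OCsCtr (log2 fold change 0.58) and in OCsEoS vs. OCsCtr (log2 fold change 0.69), where Adgre1 was also called higher (log2 fold change 0.56) and Csf1r lower (log2 fold change −0.57). Adgre1 (log2 fold change 0.46, edgeR adjusted p = 0.00211) passed the adjusted p without the fold cut-off in OCsEo vs. OCsCtr. Csf1r did so too (log2 fold change −0.44, edgeR adjusted p = 0.000449). By edgeR or DESeq2, 0 of the 9 were called in OCsEoS vs. OCsEo, with 0 at an unadjusted p under 0.05. Osteoclast markers were called lower for 8 of 10 genes in OCsEo vs. OCsCtr and for 8 of 10 in OCsEoS vs. OCsCtr. In OCsEoS vs. OCsEo 0 osteoclast markers were called by edgeR or DESeq2, with 3 at an unadjusted p under 0.05. The part of these cells in the granule gene levels was not tested.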

How the data were processed

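Per the labels and the methods, BMMs of BALB/c WT mice were differentiated into osteoclasts, and RNA was sequenced as paired-end reads from 12 NEBNext libraries. The authors aligned clean reads to GRCm38/mm10 with HISAT2 2.0.5 (fastp is also named in the submitters' processing notes), used featureCounts to count them by gene, and left the deposited counts without normalization. The deposited table also gives gene lengths, used for CPM per kilobase. The annotation release and the strand setting are not given in the sources used here.

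Analyses used R 4.3.3, edgeR 4.0.16, limma 3.58.1 and DESeq2 1.42.0. Libraries were scaled by TMM, genes were kept with filterByExpr (minimum count 10), and 1 quasi-likelihood fit of all 12 libraries without a replicate block compared the 3 pairs of groups. A gene was called at a Benjamini-Hochberg adjusted p under 0.05 over all 13681 genes tested and an absolute log2 fold change over 0.5. CPM use TMM library sizes, errors of fold changes are SE, and correlations use log2 CPM with a prior count of 2. The floor was 3 counts. All members passed the filter, so the exact permutation tests planned for members under it were not needed. The largest shift of the median log2 fold change over all genes was 0.00715 in size. The scripts were tested on simulated data.

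The members, the 13 other lists and the motifs were chosen with earlier results of these data known. Named by rule were all 10 members, up to 8 genes called per list, defining markers, genes beside a result, and the 5 genes most like Mpo and Ltf. The alternatives were DESeq2, scaling by upper quartiles or by DESeq2's size factors, testing without a filter, at least 10 counts in every library, 2 groups alone, a replicate block, other fold cut-offs and each library left out. Promoters are from RefSeq (GRCm38.p6), in which all 10 members matched, and overlaps are from GENCODE vM21 (GRCm38). The full count of called monocyte and macrophage markers is not reported here.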

Additional observations from a re-analysis of the deposited data

Results flagged for a closer look

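In 2 of the 30 sets of 4 libraries examined (10 genes in 3 groups), the highest or lowest library stood apart from its group by Dixon's ratio at the 95% level, and chance alone gives about 1 such set in 20. Mpo in OCsEo 3 was at 41.6 CPM, against 27.7 CPM in the next library of that group, and this gap took up 0.874 of the group's range. Retnlg in OCsCtr 3 was at 7.36 CPM, against 12.8 CPM in the next library, and this gap took up 0.849 of the range. Without OCsEo 3, Mpo had a log2 fold change of −0.60 in OCsEoS vs. OCsEo (edgeR adjusted p = 0.114), and without OCsCtr 3, Retnlg had one of −0.68 in OCsEoS vs. OCsCtr (edgeR adjusted p = 0.0315).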

How the results depend on the processing

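The number of granule genes called in OCsEo vs. OCsCtr was 3 under each alternative except without a fold cut-off (5) and with a cut-off of 1 on the log2 fold change (0), and it ranged from 1 (without OCsCtr 3, OCsEo 2 or OCsEo 3) to 3 with a library left out. In OCsEoS vs. OCsCtr it was 0, except without the filter on low counts (1, Retnlg), and 0 to 2 with a library left out (1 without OCsCtr 2 or OCsEoS 2, 2 without OCsCtr 3). In OCsEoS vs. OCsEo it was 3, against 5 by DESeq2, 6 without the filter, 4 with at least 10 counts in every library, 4 with a replicate block and 0 with a cut-off of 1, and it ranged from 0 (without OCsEo 2 or OCsEoS 3; 1 without OCsCtr 1, OCsEo 1, OCsEo 3 or OCsEoS 4) to 5 (without OCsCtr 3). The cause was not tested. The block added Retnlg in OCsEoS vs. OCsEo (−0.97, edgeR adjusted p = 0.0259) and changed no other call. Deviations of same-numbered libraries correlated by −0.0435 to 0.0944 over 12 pairs, against −0.115 to 0.123 over 36 other pairs. These ranges overlap and do not settle whether libraries with the same number belong together. In OCsEo vs. OCsCtr the block took the SE of Ltf from 0.184 to 0.125 and that of Camp from 0.130 to 0.135. Reversed signs, all in OCsEoS vs. OCsCtr where these genes were not called, were those of S100a9 with at least 10 counts in every library (8.22e-05) and, with a library left out, of Prtn3 (−0.192 to 0.0412), Camp (−0.135 to 0.0729) and S100a9 (−0.105 to 0.0538). Of the members' log2 fold changes under the alternatives, 516 kept direction and side of the threshold, 16 gained a call, 28 lost it and 10 reversed. The planned exact permutation tests were not run, since all 10 members passed the filter.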
